A study of Mus musculus with 9 samples.

Results

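Triglyceride assembly acyltransferases were followed here through 10 genes: Gpam, Agpat6, Agpat1, Agpat2, Agpat3, Agpat5, Lpin1, Dgat1, Dgat2 and Mogat1. They are 10 of 27962 gene names on the array. Every probe outside the control features that carries one of the 10 names was taken, which gave 24 of 41174 probes, with 1 to 4 probes for a gene. RNA came from mammary gland number 4 of dams on lactation day 2 (L2), 4 wild type (WT) and 5 hNAG-1, and each mouse was hybridized to its own 1-color Agilent whole mouse genome array. The hNAG-1 dams carry a transgene that expresses human NAG-1 (GDF15) in all tissues, so the mammary gland was not the only organ exposed, and the study kept a pair of founder lines, of which the labels name none for these mice. WT dams lack the transgene, and the labels give the same background, C57BL/7, and the same day of lactation for both genotypes. Several probes of one gene measure the same RNA and were not counted as replicates. The replicates are mice.

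Milk fat is almost wholly triglyceride, and the lactating alveolar cell makes it on the membrane of the endoplasmic reticulum. Glycerol 3-phosphate takes up its first fatty acid from a GPAT enzyme, its second from an AGPAT enzyme, loses its phosphate to a lipin, and takes up the last fatty acid from a DGAT enzyme. MOGAT enzymes reach the same diacylglycerol from monoacylglycerol. Adipocytes of the mammary fat pad use the same pathway for storage, and a whole gland holds both cell types, so that fewer cells of a type and less RNA per cell cannot be told apart in these values.

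The unit throughout is the scaled intensity, which is Agilent's processed signal after each array was brought to the same 75th percentile (797). Between 59.8% and 76.1% of features were well above background on an array, and the 24 member probes were well above background on all 9 arrays, with none saturated. Of the 3 slides used, slide 3 alone carried both genotypes (hNAG-1 5 beside WT 2, WT 3 and WT 4). WT 1 was by itself on slide 1, and the remaining hNAG-1 mice, 1 to 4, shared slide 2. All 12 secretory epithelium markers, milk protein genes among them, and all 10 adipocyte markers were well above background on all 9 arrays, as were 5 of 8 lymphocyte markers. Some arrays stood apart. Adipocyte markers were on average lowest in WT 1, where Adipoq, an adipocyte hormone, measured 9248 against 28667 to 34921 in the other 8 mice. All of the 10 markers but Fabp4 and Lipe were lowest in WT 1. Fabp4 measured 255333 in WT 1 and 197634 in WT 2, and Lipe 1122 in WT 1 and 1099 in hNAG-1 4. Lymphocyte markers summed to 70097 in WT 2, to 10869 in WT 1 and 9794 in hNAG-1 4, and to between 1313 and 3014 in the other 6 mice. WT 2 was also highest before scaling, at 104301 against at most 8170 in the other mice. Secretory epithelium markers summed to 1474098 in WT 2 and to at least 1913551 in each other mouse after scaling, but WT 2 had the smallest scaling factor (0.672), and before scaling its sum of 2193387 lay within the range of the other mice, 1817664 to 2297387.

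Averages of the hNAG-1 dams lay above those of WT for 21 of the 24 probes, where 47.9% of all 41174 probes were higher. They lay below for 3 (the Agpat6 probe A_52_P24986, the Agpat1 probe A_51_P322612 and the Agpat3 probe A_52_P523569, each by 0.13 or less on the log2 scale). The count of probes higher in hNAG-1 was 24 with median scaling, 19 with quantile normalization, and 18 with no scaling or with slide as a fixed block. The largest differences were those of Dgat2, which adds the last fatty acid, of Mogat1 and of Agpat2, with log2 fold changes of hNAG-1 over WT between 0.63 and 1.65 over their 8 probes. The Lpin1 probe A_51_P394984 was also at 0.63. Without WT 1 it was at 0.66, above both Agpat2 probes (0.61 and 0.54) and the Mogat1 probe A_52_P64376 (0.51). Over the 24 probes the median log2 fold change was 0.44, against -0.02 over all 41174 probes. It was 0.26 without WT 2, 0.29 with no scaling and 0.29 over the brightest probe of each gene, since Lpin1, Dgat2 and Mogat1 hold 10 of the 24 probes. None of the differences passed correction: the Benjamini-Hochberg adjusted p of limma was 0.661 or higher for every member probe, and 1 probe of the whole array (0.00243%) had an adjusted p under 0.05. That number was 215 without hNAG-1 5 and 138 with slide as a fixed block, none of them member probes. With an unadjusted p under 0.05 there were 5 of 24 member probes, all higher in hNAG-1, where 5.6% of all probes had such a p and 1.15% had it with the higher value in hNAG-1. These 5 probes belong to 4 genes, Mogat1 (2 probes), Lpin1, Dgat2 and Agpat5. The count changed with the mice included. It was 0 without WT 1, without WT 2 or without hNAG-1 2, and 1 without hNAG-1 3. It was 2 without WT 3 or without hNAG-1 1, 6 without hNAG-1 5, and 9 without WT 4 or without hNAG-1 4. It was also 0 with no scaling, 9 with median scaling, 1 with a floor of 20, 2 with slide as a random block and 3, none of them among the 5, with slide as a fixed block. Over all 41174 probes the count with an unadjusted p under 0.05 was 2307 as reported and 2066 with no scaling. It was 3686 with median scaling, 2001 with a floor of 20 and 1475 with slide as a random block. With 1 mouse left out it ran from 1163 (without hNAG-1 2) to 5924 (without hNAG-1 5). With the unadjusted limma p and the fold and intensity thresholds of the methods (at least a 1.5-fold change, and 65 or more in at least 1 sample), 4 member probes were called, 2 of Mogat1 and 1 each of Lpin1 and Dgat2, where 2.25% of all probes were. With the p of the methods' own test, which does not moderate the variance, the same thresholds called 0 member probes, since only the Agpat5 probe A_51_P361286 had a p under 0.05 and its difference was 1.27-fold. No member probe separated the genotypes without overlap, which 1.35% of all probes did. Scaling to the median in place of the 75th percentile moved the median log2 fold change of all probes to 0.20, and no scaling moved it to -0.16. Among all probes with an unadjusted p under 0.05, the share higher in hNAG-1 was 20.5% with the 75th percentile, 52.65% with normexp background correction, 57.5% with quantile normalization, 72.4% with median scaling, 2.86% with no scaling, 38.8% with a floor of 20, 36.9% under the methods' test, 90.8% with slide as a fixed block and 5.93% with the replicate block.

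**Figure D1:**
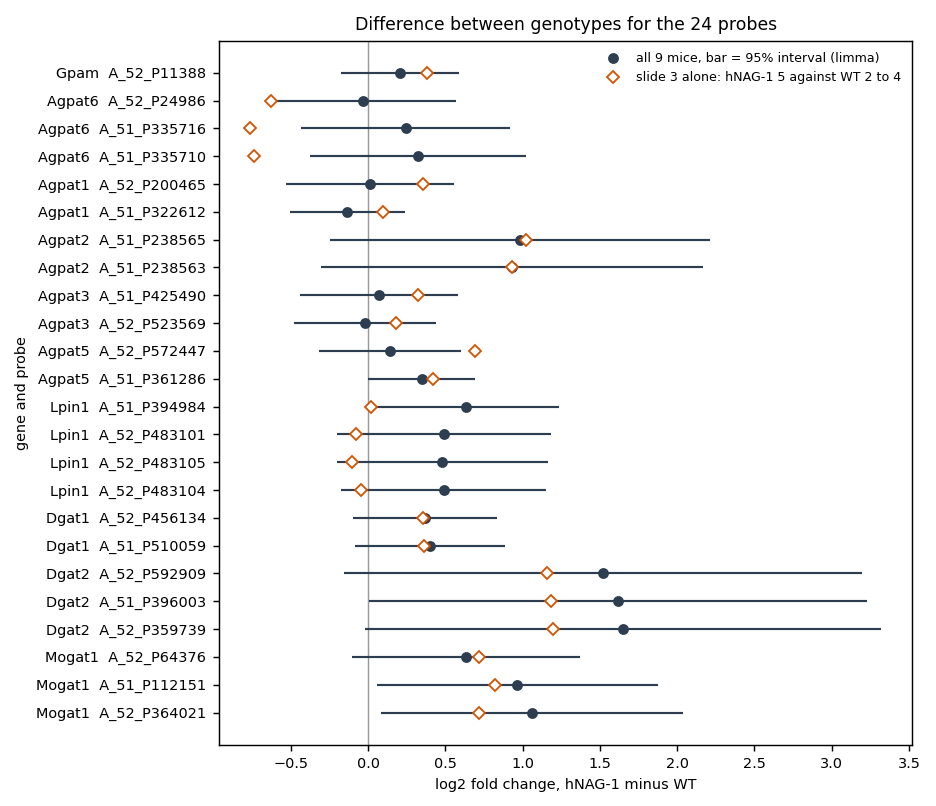
Difference between genotypes for each of the 24 probes, on the x axis as log2 fold change of hNAG-1 minus WT, with filled points and bars for the limma estimate and its 95% interval over 9 mice and open diamonds for the slide 3 comparison (hNAG-1 5 with WT 2 to 4). The Dgat2, Mogat1 and Agpat2 probes lie to the right under both estimates, while the Lpin1 and Agpat6 diamonds lie between -0.76 and 0.02.

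The first fatty acid is attached by Gpam, the mitochondrial enzyme, and by Agpat6, an enzyme of the endoplasmic reticulum now named GPAT4 that is known for its part in milk fat formation. Gpam (probe A_52_P11388, chr19:54985147-54985206, minus strand, build mm7) measured 119, 129, 120 and 144 in WT 1 to 4 and 138, 182, 139, 115 and 170 in hNAG-1 1 to 5. hNAG-1 4 lay below every WT mouse and hNAG-1 2 and 5 above, and the log2 fold change was 0.20 ± 0.17 (SE, n = 4 and 5), with a limma adjusted p of 0.675 by Benjamini-Hochberg, and was 0.13 without hNAG-1 2. It was 0.058 with no scaling, 0.42 with median scaling and 0.38 within slide 3. With quantile normalization it was 0.36, with an unadjusted limma p of 0.0407, where 2619 of all 41174 probes had a p under 0.05. Agpat6 was measured by 3 probes that share no stretch over 6 bases and lie between 21959057 and 21967143 on chromosome 8. Its brightest probe, A_52_P24986, gave 87497, 49960, 87878 and 79497 in WT and 103351, 70362, 77322, 79847 and 45435 in hNAG-1. The lowest mice were WT 2 and hNAG-1 5, the genotypes overlapped, and the log2 fold change was -0.03 ± 0.27.

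Agpat6 probes disagreed in sign. A_51_P335716 gave 4282, 3126, 4437 and 4174 in WT and 5934, 6393, 5047, 5226 and 2280 in hNAG-1. A_51_P335710 gave 3451, 2668, 3692 and 3362 in WT and 4920, 6077, 4276, 4629 and 1928 in hNAG-1. In both, hNAG-1 1 to 4, the mice of slide 2, lay above all 4 WT mice and hNAG-1 5, the mouse of slide 3, below all of them, so that the average difference was 0.24 ± 0.30 and 0.32 ± 0.31 on the log2 scale while the comparison within slide 3 was -0.76 and -0.74. The brightest probe, at -0.03 over 9 mice and -0.63 within slide 3, differed from the other two by 0.27 and 0.35, which exact permutation tests of the difference over all splits of the 9 mice did not separate from 0 (two-sided p = 0.159 and 0.127). Without hNAG-1 5, 5924 of all 41174 probes had an unadjusted limma p under 0.05, against 2307 with all 9 mice. Leaving out that mouse turned the estimate of the brightest probe to 0.14 and raised the others to 0.50 and 0.59, both then with such a p. With slide as a fixed block their negative values also had an unadjusted limma p under 0.05, in a comparison that rests on 1 hNAG-1 mouse. The difference of A_51_P335716 was 0.13 without WT 2 or without hNAG-1 2 and 0.16 without hNAG-1 1, and that of A_51_P335710 was 0.18 without hNAG-1 2. Median scaling turned the brightest probe to 0.19. Slide and genotype cannot be told apart for hNAG-1 1 to 4.

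AGPAT enzymes add the second fatty acid and make phosphatidic acid, from which both triglyceride and phospholipids are made. Agpat2, which is an AGPAT of adipose tissue whose loss causes lipodystrophy, showed the largest difference of the 4 AGPAT members of this step (Agpat1, Agpat2, Agpat3 and Agpat5). Its 2 probes overlap and are shown because they count as nearly 1 measurement, with the 40 bases they share in capitals. The array's annotation places A_51_P238565 at chr2:26603419-26603478 and only 27 bases of A_51_P238563 at chr2:26600898-26600924, both on the minus strand of mm7.
A_51_P238565: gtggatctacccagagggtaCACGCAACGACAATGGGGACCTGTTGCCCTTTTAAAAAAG
A_51_P238563: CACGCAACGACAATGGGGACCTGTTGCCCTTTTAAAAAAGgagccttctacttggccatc

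A_51_P238565 measured 630, 1169, 1479 and 3161 in WT and 1527, 5161, 3880, 1296 and 3571 in hNAG-1. WT ranged 5.02-fold from WT 1 to WT 4 and hNAG-1 3.98-fold, with hNAG-1 2, 3 and 5 above every WT mouse and hNAG-1 1 and 4 among them. The log2 fold change was 0.98 ± 0.55 (95% interval -0.24 to 2.21), with a limma adjusted p of 0.661 by Benjamini-Hochberg, and it was 0.61 without WT 1. Within slide 3 it was 1.02. The overlapping probe A_51_P238563 gave 0.93 ± 0.55, and 0.54 without WT 1.

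Agpat1, Agpat3 and Agpat5 gave log2 fold changes of 0.01 to 0.14 for their brightest probes over 9 mice. Within slide 3 these were 0.36 for Agpat1, 0.32 for Agpat3 and 0.69 for Agpat5, each a comparison of 1 hNAG-1 mouse with 3 WT mice. Single mice moved all of them. Agpat1 came to -0.09 without WT 2 and 0.18 without hNAG-1 4, and Agpat3 to -0.05 without WT 1 and 0.23 without WT 4. Agpat5 came to 0.29 without WT 1, 0.07 without WT 4 and 0.04 without WT 2 or without hNAG-1 5. Agpat1, a widely expressed member, measured 2181, 1265, 1409 and 1518 in WT and 1595, 1793, 1896, 986 and 1783 in hNAG-1 with A_52_P200465. All hNAG-1 mice but hNAG-1 4 lay inside the WT range, and the log2 fold change was 0.01 ± 0.24 (95% interval -0.53 to 0.55). The other Agpat1 probe, A_51_P322612, gave 961, 735, 935 and 847 in WT and 946, 774, 640, 725 and 893 in hNAG-1, and its log2 fold change was -0.13 ± 0.16. These 2 probes followed each other least of the 20 pairs of probes of one gene, with a Pearson correlation of 0.28 over the 9 mice, given as a description.

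Agpat3, with A_51_P425490, measured 5815, 6839, 7492 and 10399 in WT and 6638, 7996, 9368, 5873 and 10124 in hNAG-1, and no hNAG-1 mouse lay outside the WT range. Its log2 fold change was 0.07 ± 0.23. A_52_P523569 gave 1119, 1387, 1471 and 1794 in WT and 1169, 1391, 1717, 1117 and 1746 in hNAG-1, and its log2 fold change was -0.02 ± 0.20. The log2 fold changes of opposite sign of the Agpat1 and Agpat3 probes were each smaller than the residual SD between mice of one genotype. Probes of a gene share each array. Their difference within arrays gave an exact permutation p of 0.571 for Agpat1 and 0.127 for Agpat3.

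Agpat5, whose protein is found at mitochondria, measured 5842, 3500, 4519 and 3682 in WT and 4732, 4216, 3948, 4865 and 6252 in hNAG-1 with its brightest probe, A_52_P572447 (chr8:18858463-18858522, plus strand). The genotypes overlapped over most of their range, and the log2 fold change was 0.14 ± 0.20. Its other probe, A_51_P361286, measured 57.4, 50.8, 71.1 and 60.3 in WT and 78.4, 84.7, 64.1, 72.0 and 80.6 in hNAG-1. Of the hNAG-1 mice, 4 lay above all WT mice and hNAG-1 3 between WT 4 and WT 3, and the log2 fold change was 0.35 ± 0.15, with an unadjusted limma p of 0.0492, a Benjamini-Hochberg adjusted p of 0.661 and an exact permutation p of 0.0317. This was the lowest permutation p of the 24 probes, of which 1 had such a p under 0.05. The log2 fold change of A_51_P361286 was 0.59 with quantile normalization, 0.56 with median scaling and 0.20 with no scaling. The dimmest probes well above background on an array measured 14.4 to 31.7. The study listed this Agpat5 probe among those changed in these mice, so its value here is not independent evidence, and the 2 Agpat5 probes differed by 0.20 (exact permutation p = 0.349).

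**Figure D2:**
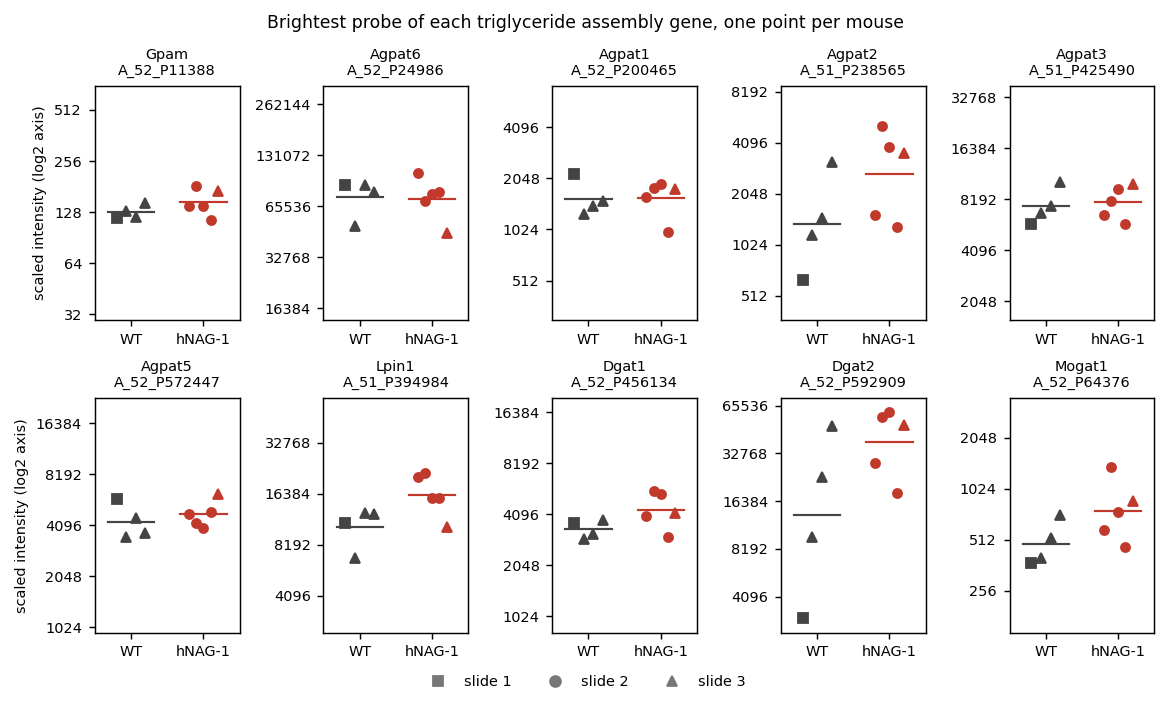
Scaled intensity (log2 axis) of the brightest probe of each of the 10 genes, with 1 point for each mouse, the marker giving the slide and the line the geometric mean of a genotype. The genotypes overlap in every panel, and the spread within a genotype is widest for Dgat2, from 2983 to 49070 in WT.

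Lpin1 is a phosphatidic acid phosphatase, which makes diacylglycerol, and also acts in the nucleus as a coregulator of transcription. Its brightest probe, A_51_P394984 (chr12:16590760-16590818, minus strand), measured 10934, 6845, 12606 and 12391 in WT and 20427, 21704, 15346, 15485 and 10344 in hNAG-1. The 4 hNAG-1 mice of slide 2 lay above every WT mouse, and hNAG-1 5 lay below 3 of the 4. The log2 fold change was 0.63 ± 0.27 (95% interval 0.03 to 1.24), with an unadjusted limma p of 0.0421, a Benjamini-Hochberg adjusted p of 0.661 and an exact permutation p of 0.0714. Within slide 3 the difference was 0.02, without WT 2, in which lymphocyte markers were high, it was 0.43, and with no scaling 0.49. Before scaling WT 2 was not the lowest mouse, at 10186 against 8165 in WT 1. The part of slide and of tissue makeup in the difference was not tested. The 3 other Lpin1 probes, of which A_52_P483104 and A_52_P483105 share 40 bases, gave log2 fold changes of 0.48 to 0.49 over 9 mice, 0.23 to 0.25 without WT 2 and -0.10 to -0.04 within slide 3. Without hNAG-1 5 all 4 Lpin1 probes, which measure the same RNA, had an unadjusted limma p under 0.05, with log2 fold changes of 0.64 to 0.79. Such a p was found for 5924 of all 41174 probes without that mouse, against 2307 with all 9 mice.

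Dgat1 and Dgat2 attach the last fatty acid and are unrelated in sequence. Dgat1, whose loss in mice is known to prevent lactation, measured 3620, 2904, 3148 and 3759 in WT and 3969, 5593, 5394, 2994 and 4155 in hNAG-1 with A_52_P456134, whose 60 bases span 147 bases of the genome (chr15:76585251-76585397, minus strand). Of the hNAG-1 mice, 4 lay above all WT mice and hNAG-1 4 between WT 2 and WT 3. The log2 fold change was 0.37 ± 0.21 (95% interval -0.10 to 0.84), with a limma adjusted p of 0.661 by Benjamini-Hochberg, and 0.35 within slide 3. The other Dgat1 probe, A_51_P510059, gave 0.40 ± 0.21. In the same order the probes gave 0.22 and 0.25 with no scaling, 0.58 and 0.62 with median scaling, and 0.27 and 0.28 without hNAG-1 2. Without hNAG-1 4 they gave 0.50 and 0.53, both with an unadjusted limma p under 0.05, which 1574 of all 41174 probes then had.

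Dgat2 had the largest difference and the widest spread of the 10 genes. The probe shown, A_52_P359739 at chr7:95186444-95186503 on the minus strand, is shown to place the measured part of the transcript.
A_52_P359739: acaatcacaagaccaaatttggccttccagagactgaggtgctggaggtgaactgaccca

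Its brightest probe, A_52_P592909 (chr7:95185607-95185666), measured 2983, 9670, 23165 and 49070 in WT and 28576, 55440, 59657, 18330 and 49668 in hNAG-1. WT 1 was the lowest by far and WT 4 lay level with hNAG-1 5, a 16.5-fold range within WT against 3.25-fold within hNAG-1. The residual SD between mice of one genotype exceeded that of 97.9% of 26762 probes that were well above background throughout a genotype. The log2 fold change was 1.52 ± 0.74 (95% interval -0.15 to 3.20), with an unadjusted limma p of 0.0703, a Benjamini-Hochberg adjusted p of 0.661 and an exact permutation p of 0.119. Leaving out WT 1 lowered it to 0.80, and it was 1.16 within slide 3, where WT 1 has no part. A_51_P396003 measured 546, 1676, 3450 and 7747 in WT and 5057, 11443, 10184, 3122 and 8058 in hNAG-1. WT 1 was again lowest, and hNAG-1 2, 3 and 5 exceeded WT 4, the highest WT mouse. Its log2 fold change was 1.62 ± 0.72, with an unadjusted limma p of 0.0491, a Benjamini-Hochberg adjusted p of 0.661 and an exact permutation p of 0.0794, and it was 0.94 without WT 1. The third probe, shown above, gave 1.65 ± 0.74 (0.95 without WT 1), and the 3 probes correlated with each other at 0.995 or more over the mice, given as a description.

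Mogat1 makes diacylglycerol from monoacylglycerol, the bypass around the first steps. It is shown by 2 of its 3 probes, those with an unadjusted p under 0.05. The array's annotation places A_51_P112151 at chr1_random:9628526-9628585 and A_52_P364021 at chr1_random:9619731-9619790, both on the plus strand of mm7 and on sequence not placed within chromosome 1.
A_51_P112151: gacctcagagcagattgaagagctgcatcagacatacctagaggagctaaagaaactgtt
A_52_P364021: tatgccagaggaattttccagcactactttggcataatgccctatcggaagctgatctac

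A_51_P112151 measured 187, 285, 339 and 533 in WT and 441, 1244, 668, 353 and 658 in hNAG-1. hNAG-1 2, 3 and 5 lay above every WT mouse, and the log2 fold change was 0.96 ± 0.40, with an unadjusted limma p of 0.0397, a Benjamini-Hochberg adjusted p of 0.661 and an exact permutation p of 0.0714. A_52_P364021 measured 85.1, 163, 175 and 292 in WT and 236, 737, 380, 209 and 333 in hNAG-1. The same 3 hNAG-1 mice exceeded all of WT, and the log2 fold change was 1.06 ± 0.43, with the lowest unadjusted limma p of the 24 probes, 0.0362, a Benjamini-Hochberg adjusted p of 0.661 and an exact permutation p of 0.0635. The study listed this probe too among those changed in these mice, so it is not independent evidence. The brightest Mogat1 probe, A_52_P64376, measured 371, 398, 522 and 711 in WT and 580, 1364, 747, 464 and 869 in hNAG-1. It correlated with the other two at 0.98 and 0.95 over the mice, given as a description, but its log2 fold change was 0.63 ± 0.33, smaller by 0.33 than with A_51_P112151. That pair had the smallest p that permuting 9 mice can give (exact p = 0.00794), and the adjusted p over the 20 pairs was 0.159. A single pair at that smallest p cannot have a lower adjusted p over 20 pairs, so the adjustment could not decide whether these probes differ. Without WT 1 the log2 fold changes of the 3 probes were 0.51 for A_52_P64376, 0.72 for A_51_P112151 and 0.75 for A_52_P364021, without hNAG-1 2 they were 0.42, 0.71 and 0.78, and within slide 3 they were 0.72, 0.82 and 0.72.

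**Figure D3:**
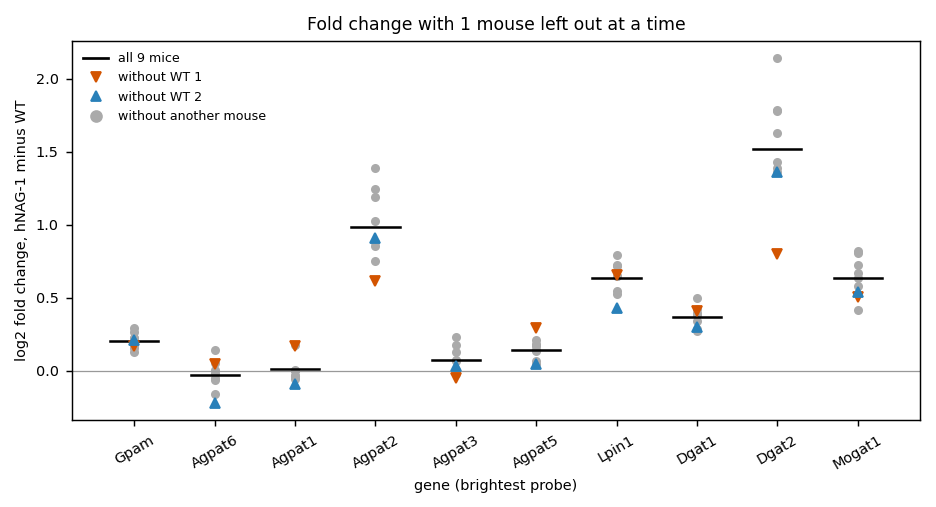
Log2 fold change of the brightest probe of each gene (y axis, hNAG-1 minus WT) with all 9 mice (line) and with each mouse left out in turn (points). The Dgat2 difference drops from 1.52 to 0.80 without WT 1, and the Lpin1 difference from 0.63 to 0.43 without WT 2.

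Most probes of one gene varied together over the mice. Of 20 pairs, 16 correlated above 0.9 over the 9 mice, 4 differed in the sign of the log2 fold change (2 of Agpat6, 1 each of Agpat1 and Agpat3), and the largest difference between log2 fold changes was 0.43, between Mogat1 A_52_P64376 and A_52_P364021. In exact permutation tests no pair passed Benjamini-Hochberg adjustment over the 20 pairs. A single pair could not, since the smallest p that 9 mice allow has an adjusted p of 0.159. An unadjusted p under 0.05 was found for 1 pair, the Mogat1 pair above. The count was 0 without WT 1, 2 without WT 4 or without hNAG-1 1, and 3 with quantile normalization.

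Some of the members varied together over the mice. Over the 45 pairs of genes, each by its brightest probe and over 9 mice, 6 had a Benjamini-Hochberg adjusted exact permutation p under 0.05 by both Pearson and Spearman correlation. They were Agpat2 with Dgat2, Mogat1 and Gpam, and Mogat1 with Dgat2, Gpam and Dgat1. Not every pair of these 5 genes passed. By Pearson correlation Gpam with Dgat1 (r = 0.75) and Agpat2 with Dgat1 (r = 0.76) both had an adjusted exact permutation p of 0.0994, Gpam with Dgat2 (r = 0.67) had 0.171 and Dgat1 with Dgat2 (r = 0.60) had 0.237. Agpat3 was near the threshold with Agpat2 (r = 0.82) and Dgat2 (r = 0.78), both with an adjusted exact permutation p of 0.0536. In 13 of the 45 pairs r was below 0, among them 6 of the 9 pairs with Agpat6 and 6 of the 9 with Agpat5. With no scaling, where all probes of an array also share its overall brightness, 2 pairs were below 0 and 10 passed by both measures, the 6 pairs among them. Agpat2 and Dgat2 correlated at r = 0.93 (exact permutation p = 2.5e-05, adjusted 0.00112) and rho = 0.98 (exact permutation p = 5e-05, adjusted 0.00112). Without the 2 mice farthest from the Agpat2 median r was 0.94, after centering on each genotype it was 0.90 and after centering on each slide 0.92. Agpat2 and Mogat1 gave r = 0.94 (exact permutation p = 0.00024, adjusted 0.00539) and rho = 0.98 (exact permutation p = 5e-05, adjusted 0.00112), with r = 0.95 without the 2 farthest mice, 0.92 within genotypes and 0.94 within slides. Dgat2 and Mogat1 gave r = 0.83 (exact permutation p = 0.0061, adjusted 0.0463) and rho = 0.95 (exact permutation p = 0.000353, adjusted 0.00529), with r = 0.82 without the 2 farthest mice, 0.75 within genotypes and 0.85 within slides. The slides held 1, 4 and 4 mice, too few for a correlation in each.

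Several members also followed the adipocyte markers, Dgat2 and Agpat2 with an adjusted p under 0.05 by both measures of correlation (exact permutation). Dgat2 correlated with the mean log2 value of 10 adipocyte markers at r = 0.97 (exact permutation p = 0.000105, adjusted over 30 relations with 3 marker lists 0.00231) and rho = 0.88 (exact permutation p = 0.00308, adjusted 0.0185), with r = 0.84 without the 2 mice farthest from the marker median, 0.97 within genotypes and 0.92 within slides. Agpat2 did so at r = 0.88 (exact permutation p = 0.000154, adjusted 0.00231) and rho = 0.93 (exact permutation p = 0.00075, adjusted 0.0112), with r = 0.83, 0.84 and 0.84 in the same 3 ways. For Mogat1 r was 0.79 (exact permutation p = 0.0123, adjusted 0.105) and rho 0.95 (exact permutation p = 0.000353, adjusted 0.0106), with r = 0.81, 0.73 and 0.85. Gpam gave r = 0.64 (exact permutation p = 0.0606, adjusted 0.152) and rho = 0.90 (exact permutation p = 0.00203, adjusted 0.0185), with r = 0.78, 0.54 and 0.69. Agpat3, whose genotype difference was 0.07, gave r = 0.71 (exact permutation p = 0.0186, adjusted 0.105) and rho = 0.82 (exact permutation p = 0.0108, adjusted 0.0359), with r = 0.70, 0.74 and 0.81. Dgat1 gave r = 0.47 (exact permutation p = 0.196, adjusted 0.35) and rho = 0.78 (exact permutation p = 0.0172, adjusted 0.0517), with r = 0.68, 0.29 and 0.77. With no scaling Gpam, Agpat2, Agpat3, Dgat1 and Mogat1 passed by both measures, at r = 0.76 to 0.92, and Dgat2 by Pearson correlation alone, at r = 0.93 (adjusted exact permutation p = 0.0084) and rho = 0.73 (0.0667). The adipocyte markers themselves averaged -1.06, -0.34, 0.05 and 0.44 in WT and 0.14, 0.45, 0.21, -0.09 and 0.21 in hNAG-1, as log2 differences from the mean of 9 mice. WT 1 was the lowest, and the genotypes overlapped (exact permutation p = 0.198). The difference between genotype means was 0.41, and 0.13 without WT 1. All 10 had higher averages in hNAG-1 (median log2 fold change 0.35), or 9 with no scaling or quantile normalization and 7 with slide as a fixed block, and none had an unadjusted limma p under 0.05 or a Benjamini-Hochberg adjusted p under 0.661. Summed, the adipocyte markers ranged from 443472 to 843185 in WT and from 618354 to 764250 in hNAG-1. Their part in the differences of Dgat2, Agpat2 and Mogat1 was not tested.

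Lymphocyte markers ran the other way by rank after scaling, for 4 members. The Spearman correlation was -0.87 for Dgat2 (exact permutation p = 0.00451, adjusted 0.0225), -0.88 for Agpat2 (exact permutation p = 0.00308, adjusted 0.0185) and -0.82 for both Dgat1 and Mogat1 (exact permutation p = 0.0108, adjusted 0.0359). By Pearson correlation no member passed adjustment. For Dgat2 r was -0.74, for Agpat2 -0.68, for Dgat1 -0.70 and for Mogat1 -0.73, and the value farthest from 0 was that of Lpin1, -0.77 (all with an adjusted exact permutation p of 0.105). Without the 2 mice farthest from the marker median r was -0.72 for Dgat2, -0.64 for Agpat2, -0.72 for Dgat1, -0.63 for Mogat1 and -0.31 for Lpin1. Within genotypes it lay between -0.71 and -0.60 for these 5 genes, and within slides between -0.87 and -0.66. With no scaling none of the 4 rank correlations passed (rho = -0.55 for Dgat2, -0.32 for Agpat2, -0.15 for Dgat1 and -0.38 for Mogat1, adjusted exact permutation p of 0.234 or higher), while that of Lpin1 did (rho = -0.85, adjusted exact permutation p = 0.0228). All 8 lymphocyte markers, or 7 with median scaling, had lower averages in hNAG-1 (median log2 fold change -1.42), none with an unadjusted limma p under 0.05 or a Benjamini-Hochberg adjusted p under 0.661, and their summed level was 1588 to 70097 in WT and 1313 to 9794 in hNAG-1. Their mean log2 value differed by -1.29 between the genotypes, and by -0.37 without WT 2. Relations with the secretory epithelium markers depended on the scaling. After scaling none passed adjustment, and the highest Pearson correlations were those of Lpin1 (r = 0.71, exact permutation p = 0.0331, adjusted 0.105) and Agpat6 (r = 0.69, exact permutation p = 0.0393, adjusted 0.107). With no scaling these were 0.42 and 0.29, while Gpam, Agpat1, Agpat2, Agpat3, Dgat1 and Mogat1 passed by both measures at r = 0.82 to 0.91 (adjusted exact permutation p of 0.0269 or lower). Dgat2 went from r = 0.10 (adjusted exact permutation p = 0.913) to 0.67 (0.0954). The summed level of the 12 epithelial markers was 1474098 to 2680719 in WT and 1913551 to 2718709 in hNAG-1, with a median log2 fold change of 0.09 (-0.06 with no scaling), a difference in mean log2 value of 0.12 (-0.05 without WT 2), and none with an unadjusted limma p under 0.05.

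**Figure D4:**
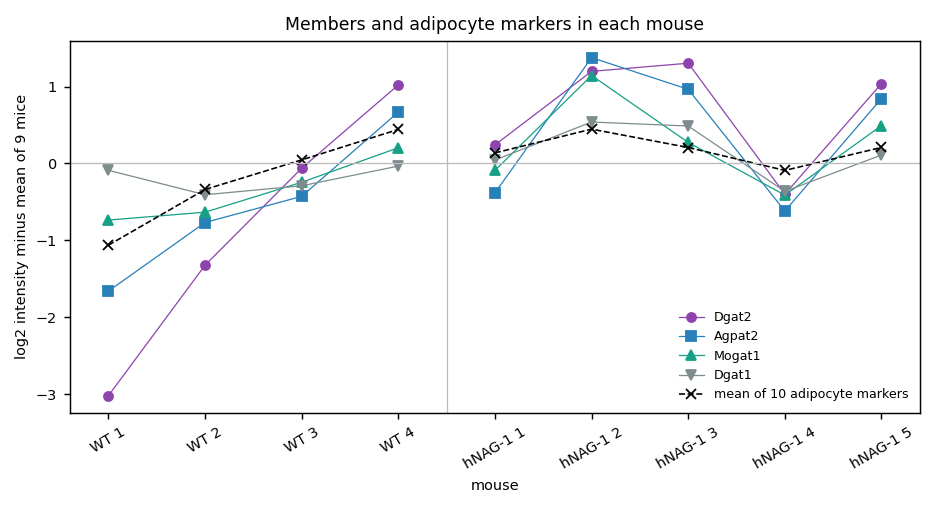
Log2 scaled intensity of Dgat2, Agpat2, Mogat1 and Dgat1 (brightest probes) and the mean of 10 adipocyte markers in each of the 9 mice, each as a difference from its own mean over the mice, with lines that only join values of one gene within a genotype. WT 1 is lowest for Dgat2, Agpat2, Mogat1 and the markers, and hNAG-1 4 is lowest among the hNAG-1 mice for each of them.

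For Agpat2 and Mogat1, which followed each other across mice, the 250 bases before the transcript start are printed from RefSeq (GRCm38.p6), with matches to 5 short motifs in capitals. Searched on both strands were the nuclear receptor half-site AGGTCA, found in 14.0% of 32851 promoters of that length, the E-box CACGTG (6.02%), the CCAAT box (33.8%), the TATA box written as TATAAA (12.4%) and the GC box GGGCGG (32.7%). Of the 10 genes, 6 had a promoter there, and Dgat1, Dgat2, Agpat5 and Agpat6 did not match. Gpam, which followed Agpat2 and Mogat1 too, is not printed. Its promoter at chr19:55127239-55127488 holds a CCAAT box, and that at chr19:55099478-55099727 a nuclear receptor half-site and a GC box. The Agpat2 sequence lies at chr2:26604418-26604667 on the minus strand and holds 2 overlapping matches to GGGCGG. That of Mogat1, at chr1:78510810-78511059 on the plus strand, holds no match to the 5 motifs. The G and C content was 69.2% for Agpat2 and 41.2% for Mogat1.
Agpat2: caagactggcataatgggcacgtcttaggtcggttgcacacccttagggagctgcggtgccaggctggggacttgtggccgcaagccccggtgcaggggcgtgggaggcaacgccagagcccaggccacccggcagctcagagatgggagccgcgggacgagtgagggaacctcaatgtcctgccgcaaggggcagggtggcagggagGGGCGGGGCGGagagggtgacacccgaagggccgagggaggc
Mogat1: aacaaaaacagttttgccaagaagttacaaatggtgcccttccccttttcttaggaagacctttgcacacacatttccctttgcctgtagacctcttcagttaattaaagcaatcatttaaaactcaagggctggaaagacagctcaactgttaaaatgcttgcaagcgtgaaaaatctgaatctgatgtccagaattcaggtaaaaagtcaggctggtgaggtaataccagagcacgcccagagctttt

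Around the 10 genes, 69 genes of 5 lists were looked up, of which 68 had a probe, and each was taken by its brightest. Averages were higher in hNAG-1 for 48 and lower for 20, where 47.9% of all probes were higher, and the median log2 fold change was 0.15. The split was 62 to 6 with median scaling and 36 to 32 with no scaling. An unadjusted limma p under 0.05 was found for 2 of the 68, against 5.6% of all probes, and none had a Benjamini-Hochberg adjusted p under 0.661. Both were among the 15 other glycerolipid acyltransferases and lipins. Lpcat3, an acyltransferase that remodels phosphatidylcholine, measured 1850, 1862, 1989 and 2269 in WT and 2067, 3728, 2943, 2570 and 2503 in hNAG-1. Only hNAG-1 1 lay inside the WT range, and the log2 fold change was 0.45 ± 0.19 (unadjusted limma p = 0.0386, exact permutation p = 0.0397, Benjamini-Hochberg adjusted limma p = 0.661). Lpcat1, which acts on lysophosphatidylcholine, measured 266, 379, 257 and 382 in WT and 196, 199, 269, 206 and 234 in hNAG-1. All hNAG-1 mice but hNAG-1 3 lay below every WT mouse, and the log2 fold change was -0.53 ± 0.18 (unadjusted limma p = 0.0186, exact permutation p = 0.0317, Benjamini-Hochberg adjusted limma p = 0.661). The largest positive difference of that list was Mogat2, the MOGAT known from the intestine, at 1.25 ± 0.71 (well above background in 3 WT and 5 hNAG-1 mice), and the largest negative one Gpat2 at -0.57 ± 0.54, neither with an unadjusted limma p under 0.05. The list's median was -0.08, with 6 genes higher and 9 lower, and turned to 0.14, with 11 higher, under median scaling.

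Supply of glycerol 3-phosphate showed smaller differences, with 8 genes higher and 2 lower (10 to 0 with median scaling, 6 to 4 with no scaling), a median of 0.18 (0.034 with no scaling), and a range from -0.17 for the glycerol channel Aqp3 to 0.30 for Gpd1, which makes glycerol 3-phosphate from a glycolytic intermediate. In the phospholipid branch, 15 genes were higher and 6 lower (21 to 0 with median scaling, 13 to 8 with no scaling), with a median of 0.16 (0.37 and 0.011) and a range from -0.20 for Cds2, a CDP-diacylglycerol synthase, to 0.53 for the choline kinase Chka. For lipid droplet assembly 9 genes were higher and 3 lower, with a median of 0.08, which turned to -0.07, with 3 higher and 9 lower, with no scaling. Plin2, the main coat protein of milk fat droplets, was at 0.07 ± 0.16, Fitm1 had the largest negative value (-1.10 ± 1.02, well above background in 2 WT and 2 hNAG-1 mice) and Fitm2 the largest positive one (0.47 ± 0.31). In triglyceride hydrolysis all 10 genes, or 9 with no scaling, quantile normalization or slide as a fixed block, had higher averages in hNAG-1. The median was 0.28 (0.13 with no scaling, 0.49 with median scaling), and the range ran from 0.06 for Pnpla8 to 1.03 ± 0.53 for Pnpla3. None of the genes in these other lists had an unadjusted limma p under 0.05. The median of the 10 member genes by their brightest probes was 0.29.

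**Figure D5:**
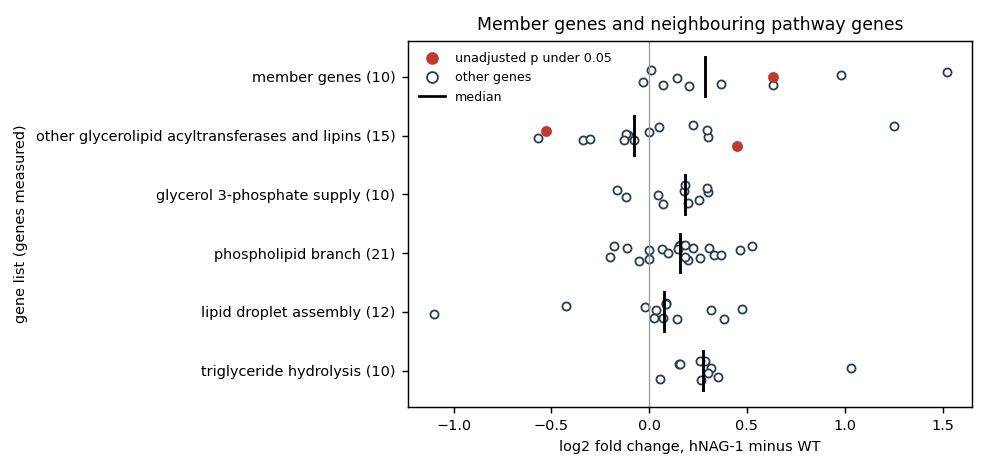
Log2 fold change (x axis, hNAG-1 minus WT) of the 10 member genes and of the genes of 5 neighboring lists, each by its brightest probe, with medians as vertical lines and filled points for an unadjusted limma p under 0.05. Lpin1, Lpcat1 and Lpcat3 are the filled points, and Dgat2 at 1.52 lies farthest to the right.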

How the data were processed

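The authors deposited Agilent scanner output, written by Feature Extraction (version 9.5 per the submitters' processing notes), as background-subtracted intensity per feature without scaling between arrays. A deposited series table held the same intensity values. The methods name an ANOVA with thresholds on p (0.05), fold (1.5) and intensity (65). Here, control features were dropped, spots of one probe were averaged, and intensities were divided by the array's 75th percentile, brought to a common level and converted to log2. The comparison ran over all 41174 probes with limma 3.58.1 in R 4.3.3 (lmFit and eBayes, two-sided, 7 residual degrees of freedom before moderation, no covariates) and Benjamini-Hochberg adjustment. Single values, differences between probes and correlations were tested by exact permutation over mice in Python 3.11.15. The method was tested on simulated data with independent noise for each probe and no slide effect, which cannot show how it behaves with these slides. Arrays have no read depth, and their number limits the precision. p-values measure the spread between these mice.

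The member genes and lists were chosen with earlier results of these data known. Each member was named with all its probes, and values by mouse were given for its brightest probe, for any probe with an unadjusted p under 0.05 and for any probe that differed from the brightest by at least 0.5 or in sign. List genes were named if their unadjusted p was under 0.05 or their change the largest of the list. Some further list genes and markers were named for their role (Plin2, Adipoq) or as exceptions within their list (Fabp4, Lipe). Genes were matched by the array's names or, through RefSeq, by accession. Of 99 list entries 98 were measured, and Lpcat4 matched no probe. The secretory epithelium, adipocyte and lymphocyte lists describe tissue makeup. Probe positions are those of the array's annotation (mm7), and promoters are of GRCm38.p6. Alternatives were normexp background correction (offset 50), no scaling, median scaling, quantile normalization, a floor of 20, leaving out flagged features, a filter on dim probes, the methods' test and criteria, slide as a fixed or random block, a replicate block, matching by accession, the mean over a gene's probes and leaving out each mouse. Those for pairs of probes of one gene, the methods' test with the methods' thresholds, and marker levels and correlations with no scaling were added after the data were seen.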

Additional observations from a re-analysis of the deposited data

Results flagged for a closer look

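In 4 of 48 groups (24 probes in each genotype) the lowest mouse lay far from the others of its genotype, where chance alone gives about 1 in 20. These were hNAG-1 5 for Agpat6 A_51_P335716 (2280), hNAG-1 4 for Agpat1 A_52_P200465 (986), and WT 2 for Lpin1 A_52_P483101 (5140) and A_52_P483105 (5169). The Lpin1 probes measure the same RNA. Before scaling WT 2 lay close to WT 1 in both Lpin1 probes, at 7648 against 8101 for A_52_P483101 and 7692 against 7670 for A_52_P483105, and it had the smallest scaling factor of the 9 arrays. WT 2 was also the mouse with the highest lymphocyte markers, before and after scaling, and the part of these in its Lpin1 values was not tested.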

How the results depend on the processing

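No member probe had a limma adjusted p under 0.05 in any of the settings run, and the median log2 fold change over member probes stayed positive, between 0.26 and 0.66. The number of member probes with an unadjusted p under 0.05 was 5 as reported, 9 with median scaling, 0 with no scaling, 1 with a floor of 20, 1 under the methods' test, 0 with the methods' test and thresholds together (added after the data were seen), 3 with slide as a fixed block, 2 with slide as a random block and 0 to 9 with 1 mouse left out. The 3 with slide as a fixed block are none of the 5 reported: 2 Agpat6 probes, lower in hNAG-1, and Agpat5 A_52_P572447, higher, in a comparison of 1 hNAG-1 mouse with 3 WT mice. For list genes it was 2 as reported, 4 with normexp, 6 with median scaling, 0 with no scaling, 1 with slide as a fixed or a random block and 0 to 5 with 1 mouse left out. Pairs of probes of one gene with a permutation p under 0.05 numbered 1 as reported, 3 with quantile normalization and 0 to 2 with 1 mouse left out. Over all 41174 probes the number with an unadjusted limma p under 0.05 moved too. It was 2307 as reported, 3686 with median scaling, 1163 without hNAG-1 2 and 5924 without hNAG-1 5. The cause of these shifts was not tested.

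Mice with the same number were not paired by design, and the correlations of their deviations were 0.08, -0.17, -0.06 and -0.21. In a paired fit with the replicate block, 2 member probes (Agpat6 A_51_P335710 and Lpin1 A_51_P394984) and 1 list gene had an unadjusted p under 0.05.

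Of 480 values of single probes under alternatives, 34 changed sign. Agpat1 A_52_P200465 came to -0.011 with quantile normalization, -0.14 with no scaling, -0.036 with the replicate block and -0.090 to 0.18 with 1 mouse left out. Agpat3 A_51_P425490 came to -0.0059, -0.076 and -0.021 under the same settings and to -0.049 to 0.23 with 1 mouse left out. Agpat6 A_52_P24986 came to 0.19 with median scaling, 0.14 with the replicate block and -0.22 to 0.14 with 1 mouse left out. Median scaling gave 0.082 for Agpat1 A_51_P322612 and 0.20 for Agpat3 A_52_P523569, no scaling gave -0.0042 for Agpat5 A_52_P572447, and slide as a random block gave 0.012 for Agpat3 A_52_P523569, which ranged from -0.14 to 0.092 with 1 mouse left out. With slide as a fixed block the values were 0.10 for Agpat1 A_51_P322612, 0.18 for Agpat3 A_52_P523569, -0.76 and -0.74 for Agpat6 A_51_P335716 and A_51_P335710, and -0.079, -0.10 and -0.044 for Lpin1 A_52_P483101, A_52_P483105 and A_52_P483104.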
